A study of Mus musculus with 12 samples.

Results

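The 9 genes described here encode ataxin-1, its paralogue and 7 known protein partners. They were taken by symbol (Atxn1, Atxn1l, Cic, Rbm17, Rora, Kat5, Hdac3, Ncor1 and Ywhae), and each was found once among the 15759 entries of a table of normalized counts. The study compared spinocerebellar ataxia type 1 knock-in (SCA1 KI) mice with wild-type (WT) littermates at 12 weeks of age. SCA1 KI mice (Atxn1 154Q/2Q) hold 154 glutamines in the product of one Atxn1 allele and 2 in that of the other, driven by the endogenous regulators of the locus, so that every cell that normally expresses Atxn1 carries the expanded allele. WT littermates lack the expansion, and both genotypes were on a pure C57BL/6J background. Whole cortex (CX) and whole cerebellum (CB) were dissected by hand, and poly-adenylated RNA of the 4 groups was sequenced in 12 libraries, 3 biological replicates in each group. The CX WT libraries carry the letters B, C and D, the CX SCA1 KI libraries A, E and F, the CB WT libraries the numbers 2, 4 and 6, and the CB SCA1 KI libraries 1, 3 and 5. The study describes the cerebellar data as generated earlier than the cortical data, so region and experiment cannot be told apart.

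Ataxin-1 is a chromatin-associated protein that holds a stretch of glutamines and, towards its C-terminus, a domain (AXH) through which it and its paralogue ataxin-1-like bind the HMG-box repressor Capicua. Expansion of the glutamine stretch causes spinocerebellar ataxia type 1, a disease best known for the loss of function and death of cerebellar Purkinje cells. Other complexes of ataxin-1 contain the splicing factor RBM17, the nuclear receptor RORα with the acetyltransferase Tip60, and the corepressor NCoR with the deacetylase HDAC3, and 14-3-3 proteins bind ataxin-1 once a serine near its C-terminus is phosphorylated.

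The sequences of these sites in the mouse reference show what the genotype alters and where a partner docks. Both were read from the coding strand of transcript Atxn1-201 (GENCODE vM21, GRCm38, minus strand, 791 codons). The first lies at chr13:45567773-45567868, in coding exon sequence of exon 7 of 8, and its capitals mark the 2 glutamine codons at which the knock-in allele is expanded. The second lies at chr13:45557148-45557210, in exon 8 of 8, and its capitals mark the codon of the serine that creates the site for 14-3-3 proteins.
Atxn1 repeat site: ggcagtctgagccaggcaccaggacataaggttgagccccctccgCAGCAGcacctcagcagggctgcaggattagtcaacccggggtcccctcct
Atxn1 14-3-3 site: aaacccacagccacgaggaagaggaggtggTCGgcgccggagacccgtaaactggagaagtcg

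Each library held between 29520855 and 51311309 reads on genes, and all 9 genes were well covered, from 1434 reads for Rbm17 in its lowest library to 35693 for Ywhae in its highest. Normalized counts (reads divided by 1 size factor per library) were fitted with limma as log2(normalized count + 1) over the 15369 genes whose mean reached 10. All 12 libraries entered with 4 group means. To be counted as a differentially expressed gene (DEG), a gene needed an absolute log2 fold change (LFC) over 0.25 and a p, adjusted after Benjamini and Hochberg over all tested genes, under 0.05. Summed markers of cortical excitatory neurons lay at 57024 to 85296 in cortex and 13718 to 22077 in cerebellum, and those of cerebellar granule cells at 3209 to 4143 in cortex and 107543 to 156714 in cerebellum, so the libraries matched their labelled regions. Bulk counts cannot tell fewer cells of a type from less RNA per cell.

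In the cortex, 2 of the 9 genes, Rora and Cic, fell in SCA1 KI mice and none rose, beside 15.6% of all tested genes called in this comparison (10.8% lower and 4.82% higher). Rora fell by 0.53 on the log2 scale, a change of -30.7%, and Cic fell by 0.29, a change of -18.2%. In the cerebellum no member passed the test, beside 5.36% of all tested genes. Of the 9 genes, Rora alone differed between the regions in its genotype difference.

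**Figure D1:**
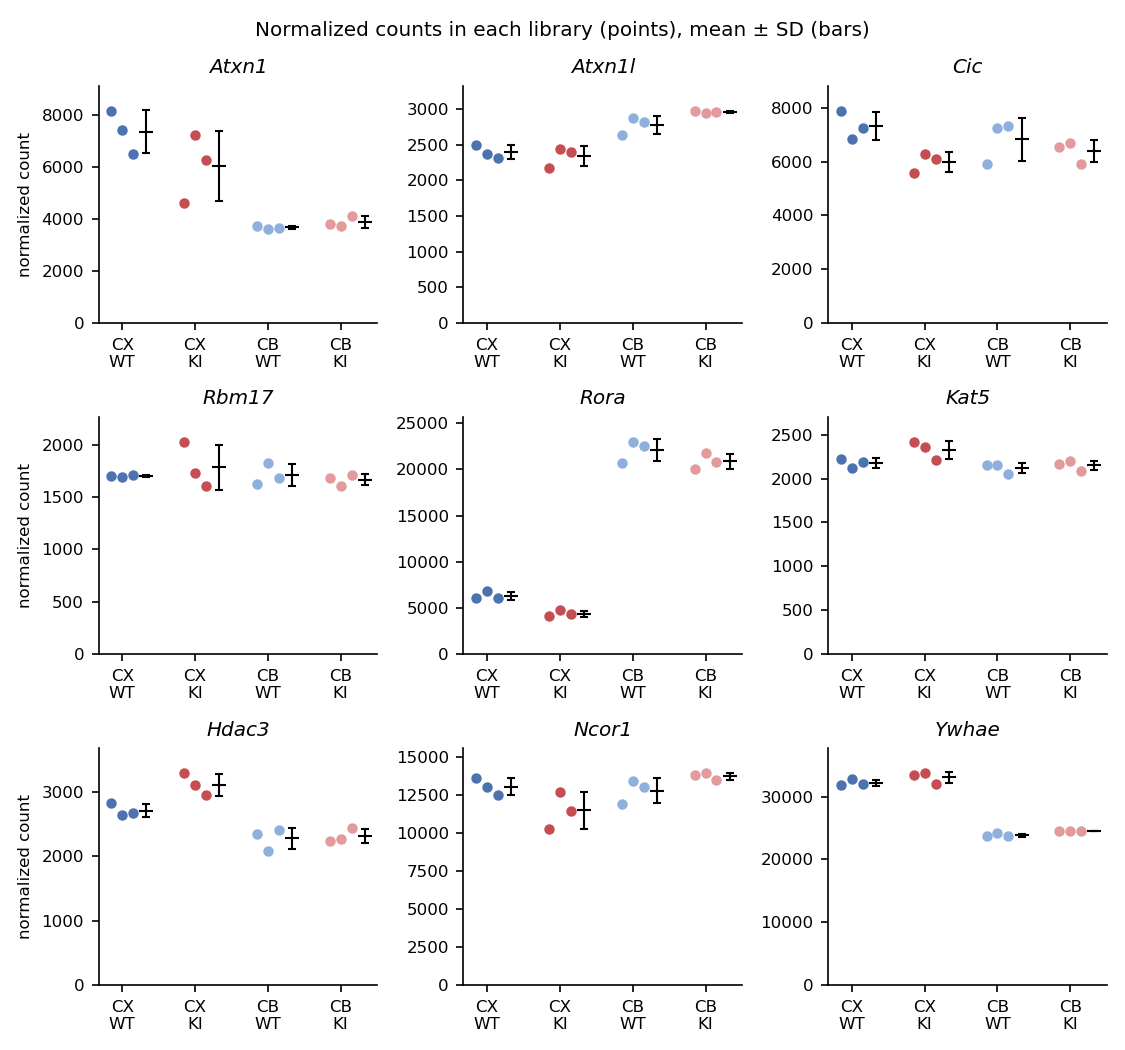
Normalized counts (y axis of each panel, from 0) of the 9 genes in the 4 groups of region (CX, cortex, and CB, cerebellum) and genotype, with 1 point for each of the 3 libraries and the mean ± SD beside them. Rora in the SCA1 KI cortex lies between 4097 and 4727, below its WT cortex libraries (6049 to 6777), and far below all cerebellar libraries (20089 to 22926).

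Atxn1 (chr13:45549755-45965008, minus strand, GRCm38) is the gene that carries the knock-in, and its counts pool both alleles. In WT cortex its normalized count was 8147, 7443 and 6521 in libraries B, C and D, and in SCA1 KI cortex 4604, 7249 and 6267 in A, E and F. Library A stood below all others, while E lay within the WT range, so the groups overlapped. The LFC was -0.31 (SE 0.13, 95% interval -0.59 to -0.02, unadjusted p = 0.0362, adjusted p = 0.132 by limma) and did not pass the test. Without library E the LFC was -0.45 and passed (adjusted p = 0.0248), and without library A it was -0.12 (adjusted p = 0.423).

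In the cerebellum Atxn1 was measured at 3737, 3628 and 3671 in WT libraries 2, 4 and 6 and at 3812, 3717 and 4138 in SCA1 KI libraries 1, 3 and 5. These ranges overlapped, with an LFC of 0.08 (SE 0.13, 95% interval -0.20 to 0.36, adjusted p = 0.837). The difference between the regions was -0.38 (SE 0.18, adjusted p = 0.256) and did not pass. Atxn1 shares 375 exonic bases (2.70% of its exons) with Gmpr on the opposite strand. Gmpr encodes a guanosine monophosphate reductase, its cortical LFC was -0.03 and its cerebellar LFC -0.20, and neither passed (adjusted p = 0.812 and 0.152). The strand setting of the counting is not given in the sources used here, so reads in the shared bases cannot be assigned.

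Atxn1l (chr8:109726451-109737739, minus strand) encodes the paralogue ataxin-1-like, which has no glutamine stretch but binds Capicua through its own AXH domain. Its counts in WT cortex were 2500, 2373 and 2308, and in SCA1 KI cortex 2173, 2437 and 2399. The groups overlapped and the LFC was -0.04 (SE 0.06, 95% interval -0.17 to 0.10, adjusted p = 0.734), a sign that turned under 3 alternatives. In the cerebellum the counts were 2639, 2879 and 2820 in WT and 2966, 2949 and 2956 in SCA1 KI libraries. All SCA1 KI libraries were higher, as held for 14.3% of all genes, but the LFC of 0.09 (SE 0.06, adjusted p = 0.509) did not pass.

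Cic (chr7:25267704-25294159, plus strand) encodes Capicua, the repressor that both paralogues bind and stabilise. In WT cortex its counts were 7868, 6848 and 7246, and in SCA1 KI cortex 5566, 6294 and 6092, so the groups did not overlap, as held for 30.9% of all genes in this comparison. The LFC was -0.29 (SE 0.09, 95% interval -0.48 to -0.10, adjusted p = 0.0394). Its test ended above the threshold in 6 of the 12 fits that left out 1 library. The adjusted p was then 0.119 without CX SCA1 KI library A (LFC -0.24), 0.0677 without F, 0.128 without CX WT library B (LFC -0.24), 0.0715 without D, 0.0562 without CB SCA1 KI library 1 and 0.0532 without 3. Cic was also lost with the regions fitted apart (adjusted p = 0.0546) and when each library's dependence on exon length and GC content was taken out (LFC -0.10, adjusted p = 0.297). Its exons have the highest GC fraction of the 9 genes, 0.616.

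In the cerebellum Cic was at 5918, 7258 and 7316 in WT and at 6556, 6692 and 5928 in SCA1 KI libraries. The groups overlapped (LFC -0.09, SE 0.09, adjusted p = 0.683), and the difference between the regions was -0.20 (SE 0.13, adjusted p = 0.400). As a ratio of normalized counts per kb within a library, Atxn1l stood at 0.435 to 0.474 of Cic in WT cortex and at 0.530 to 0.539 in SCA1 KI cortex, ranges that did not meet. In the cerebellum it stood at 0.527 to 0.610 of Cic in WT and at 0.603 to 0.682 in SCA1 KI libraries, which overlapped. How many gene pairs have ratios that separate was not computed, and the ratio was not taken with length and GC trends removed. Atxn1 stood at 0.666 to 0.804 of Cic in WT and 0.612 to 0.852 in SCA1 KI cortex, which overlapped.

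Rora (chr9:68653786-69388246, plus strand) encodes RORα, a nuclear receptor needed for the maturation of Purkinje cells. In WT cortex its counts were 6090, 6777 and 6049, and in SCA1 KI cortex 4097, 4727 and 4283. Every SCA1 KI library lay below every WT library, and 30.9% of all genes did not overlap in either direction in this comparison. The LFC was -0.53 (SE 0.07, 95% interval -0.68 to -0.38, adjusted p = 2.54e-04), and it passed in all 12 fits without 1 library (-0.59 to -0.48) and in the 14 other alternatives (-0.53 to -0.39). Fits without a cerebellar library kept the cortical LFC as it was and changed only the estimate of the spread.

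The cerebellum held far more Rora, with 20707, 22926 and 22586 in WT and 20089, 21733 and 20829 in SCA1 KI libraries. The genotypes overlapped there and the LFC was -0.08 (SE 0.07, 95% interval -0.23 to 0.07, adjusted p = 0.640). The difference between the regions passed the test at -0.45 (SE 0.10, 95% interval -0.66 to -0.24, adjusted p = 0.0137), as did 8.15% of all tested genes in either direction and 4.89% with a lower value in the cortex. It was -0.51 to -0.40 in the fits without 1 library and passed in each.

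Markers of several cell types moved with Rora in the cortex, where 10.8% of all tested genes were lower and 4.82% higher. The summed level of 6 markers of cortical excitatory neurons was 83478 to 85296 in WT and 57024 to 67339 in SCA1 KI cortex, with 0 of 6 higher and 2 lower (Cux2 and Slc17a7). That of 5 astrocyte markers was 50262 to 55335 in WT and 33383 to 43584 in SCA1 KI cortex, with 3 of 5 lower. The Purkinje cell list, several of whose 6 genes are also expressed in cortical neurons, went from 46042 to 49015 in WT down to 26078 to 30824 in SCA1 KI cortex, with 4 genes lower and 1 higher. Itpr1 made up most of this sum, since sums weigh abundant genes most. Its mean was 35112 in WT and 19934 in SCA1 KI cortex, beside list means of 47591 and 28327. The sums of 4 further lists, besides the thalamic list below, were lower in every SCA1 KI than in every WT cortical library. They were forebrain interneurons, hippocampus, striatum, and molecular-layer and other cerebellar interneurons. Forebrain interneurons were at 18737 to 19618 in WT and 13395 to 16135 in SCA1 KI, with 1 of 5 genes lower. Hippocampus was at 8688 to 9634 and 6335 to 7134, with 1 of 4 lower. Striatum was at 3555 to 8127 and 1558 to 3354, with 1 of 4 lower. The list of cerebellar interneurons was at 4887 to 5231 and 1979 to 2730, with 2 of 3 lower (Sorcs3 and Grm2). The 1 blood marker in the table was lower as well (238 to 298 and 121 to 193).

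The thalamic list (5 of its 6 genes are in the table) summed to 1808 to 2065 in WT and 1314 to 1779 in SCA1 KI cortex, ranges that did not meet, with 1 gene lower. The 7 midbrain and brainstem markers summed to 269 to 365 in WT and 861 to 1783 in SCA1 KI cortex, with 3 higher. The sums of oligodendrocyte, microglia and endothelium markers overlapped between the genotypes in the cortex. No marker of these lists was at 0 in all cortical libraries. The part of any of these lists in the lower level of Rora and Cic was not tested. A difference in dissected tissue that follows genotype cannot be told apart from genotype in these libraries. In the cerebellum, where Rora did not pass, 683 of the 15369 tested genes were lower and 141 higher. There 31.8% of all genes did not overlap between the genotypes in either direction. The thalamic list stood at 6099 to 7214 in WT and 4172 to 4365 in SCA1 KI, and the Purkinje list at 322005 to 401415 and 283697 to 320166. The astrocyte sum was also lower in every SCA1 KI library (96669 to 99595 and 86923.5 to 90285). So were those of forebrain interneurons (10917.5 to 13133 and 9574 to 10206, 3 of 5 genes lower), striatum, oligodendrocytes and microglia. The sum of molecular-layer and other cerebellar interneurons was lower in every SCA1 KI library too. The sum of the list chosen for cortical excitatory neurons was higher in every SCA1 KI library (13718 to 18883 and 20131 to 22077). Of its 6 genes 1 passed as higher by limma, Tbr1 (LFC 0.58, adjusted p = 0.0220). Which cerebellar cells express these genes was not tested. Hippocampus, granule cell, endothelium, choroid plexus and blood sums overlapped. The midbrain and brainstem list went the other way there than in the cortex, from 782 to 1039.9 in WT down to 215 to 277 in SCA1 KI, with 3 of 7 lower. They were the same 3 genes, Pou4f1 (LFC -3.59), Shox2 (LFC -5.46) and Tal1 (LFC -1.79).

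The related receptor gene Rorb, whose product recognises the same response element as RORα, marks layer IV neurons of the cortex. Its cortical counts were 4986, 4901 and 4565 in WT and 2405, 2986 and 2358 in SCA1 KI libraries. Rorb fell in the cortex by 0.91 on the log2 scale (adjusted p = 3.75e-04) and in the cerebellum by 0.49 (adjusted p = 0.0410). The cerebellar call of Rorb was lost without CB WT library 2 or 6, CB SCA1 KI library 1, 3 or 5 or CX WT library B, C or D (LFC -0.55 to -0.32, adjusted p 0.0504 to 0.138). The value of -0.32 was that without CB WT library 2. It was also lost with each region on its own, with reads thinned to the smallest library and with scaling to the library total (LFC -0.49 to -0.46, adjusted p 0.0522 to 0.0753). The difference between the regions was -0.42 for Rorb and did not pass (adjusted p = 0.197).

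Kat5 (chr19:5603014-5610237, minus strand) encodes Tip60, the acetyltransferase found with RORα and ataxin-1 and the catalytic subunit of the NuA4 complex. Its counts in WT cortex were 2228, 2117 and 2185, and in SCA1 KI cortex 2413, 2356 and 2213. The groups overlapped through library F, and the LFC was 0.10 (SE 0.05, 95% interval -0.02 to 0.21, adjusted p = 0.263). In the cerebellum it was at 2151, 2158 and 2056 in WT and 2164, 2199 and 2092 in SCA1 KI libraries, with an LFC of 0.02 (SE 0.05, adjusted p = 0.905). Kat5 shares 426 exonic bases (12.1% of its exons) with Rnaseh2c, a subunit of ribonuclease H2, on the opposite strand. The LFC of Rnaseh2c was 0.25 in the cortex (adjusted p = 0.105).

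Over the 18 listed subunits of Tip60/NuA4, 2 were higher and 0 lower in the SCA1 KI cortex, beside 4.82% higher and 10.8% lower of all tested genes. Their median LFC was 0.11 beside -0.003 over all tested genes. Morf4l2 rose by 0.39 (adjusted p = 5.91e-04), and Dmap1, which binds DNA methyltransferase 1, rose by 0.27 (adjusted p = 0.0370). The scaffold Trrap (-0.30, adjusted p = 0.0660) and the ATPase Ep400 (-0.19, adjusted p = 0.144) did not pass, and without CX SCA1 KI library A they were at -0.18 and -0.10. In the cerebellum the enhancer-of-polycomb subunit Epc2 rose by 0.30 (adjusted p = 0.0269), and the median of the list was 0.05. Morf4l2 also differed between the regions (0.35, adjusted p = 0.0199). The call of Dmap1 was lost without CX SCA1 KI library A or E, without any CX WT library and without any CB SCA1 KI library (LFC 0.20 to 0.30, adjusted p up to 0.117) and with each region on its own (adjusted p = 0.103), and that of Epc2 without CB WT library 2 or 6 or any CB SCA1 KI library (adjusted p 0.0603 to 0.119). The regional call of Morf4l2 was lost without CB SCA1 KI library 1 (LFC 0.34, adjusted p = 0.0625) or 3 (LFC 0.35, adjusted p = 0.0526), at a difference of nearly the same size.

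Hdac3 (chr18:37935844-37955016, minus strand) encodes the deacetylase of the NCoR corepressor complex. Its cortical counts were 2818, 2632 and 2663 in WT and 3283, 3096 and 2946 in SCA1 KI libraries. All SCA1 KI libraries lay above all WT libraries, and 30.9% of all genes did not overlap in either direction in this comparison. The LFC of 0.20 (SE 0.07, 95% interval 0.05 to 0.35, unadjusted p = 0.0119, adjusted p = 0.0619) did not pass. In the cerebellum it was at 2342, 2085 and 2398 in WT and 2228, 2271 and 2431 in SCA1 KI libraries, which overlapped (LFC 0.02, SE 0.07, adjusted p = 0.912).

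Ncor1 (chr11:62316426-62458541, minus strand) encodes NCoR, the corepressor that recruits HDAC3 to nuclear receptors. In WT cortex its counts were 13581, 13030 and 12453, and in SCA1 KI cortex 10274, 12705 and 11429. Library E lay inside the WT range, and the LFC of -0.19 (SE 0.08, unadjusted p = 0.0270, adjusted p = 0.109) did not pass. Without library E it was -0.26 and passed (adjusted p = 0.0252).

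In the cerebellum Ncor1 was at 11876, 13409 and 13029 in WT and 13795, 13901 and 13463 in SCA1 KI libraries, all SCA1 KI libraries being higher, with an LFC of 0.11 (SE 0.08, adjusted p = 0.543). The difference between the regions was -0.29 (SE 0.11, unadjusted p = 0.0166, adjusted p = 0.122), and -0.37 without library E, which passed (adjusted p = 0.0334). Per kb and within a library, Ncor1 stood at 1.48 to 1.57 of Hdac3 in WT cortex and 0.990 to 1.30 in SCA1 KI cortex, ranges that did not meet. In the cerebellum the ranges overlapped, at 1.60 to 2.04 and 1.75 to 1.96. The share of gene pairs that separate was not computed here either. Ncor1 overlaps exons of Pigl by 82 bases and of Ttc19 by 1 base on the opposite strand.

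Among 5 genes of the NCoR complex (Ncor1, Hdac3, Tbl1x, Tbl1xr1 and Gps2), 1 was lower in the SCA1 KI cortex and 0 were higher. Over all tested genes 10.8% were lower and 4.82% higher. The median LFC of the 5 genes was -0.08. Tbl1xr1, a WD40 subunit, fell by 0.50 (adjusted p = 0.00832), and by 0.33 without CX SCA1 KI library A (adjusted p = 0.00511), whereas its relative Tbl1x was at -0.08 (adjusted p = 0.480) and Gps2 at 0.25 (adjusted p = 0.0936). With limma, edgeR and DESeq2 alike, 0 genes of the complex passed in the cerebellum, where 0 had an unadjusted p under 0.05, and 0 in the difference between the regions, where 2 had one. Limma called 5.36% of all tested genes in the cerebellum and 8.15% in the difference between the regions.

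The 4 class I histone deacetylases all had a positive cortical LFC, with a median of 0.25, and 2 passed as higher, beside 4.82% of all tested genes. Hdac1 rose by 0.31 (adjusted p = 0.00598) and Hdac2 by 0.26 (adjusted p = 0.00949), and both are catalytic subunits of complexes other than NCoR. With each region on its own both calls were lost at the same LFC (adjusted p = 0.0520 for Hdac1 and 0.0537 for Hdac2). Without library A or CX WT library B or D the LFC of Hdac2 was 0.22 to 0.25, under the limit, as it was with thinned reads (0.25) and with length and GC trends removed (0.18). Hdac3 (0.20) and Hdac8 (0.24, adjusted p = 0.0780, and 0.15 without library A) did not pass. In the cerebellum 0 of the 4 passed with limma, edgeR or DESeq2, and 2 had an unadjusted p under 0.05. Among all tested genes limma called 5.36% there, and 17.3% had an unadjusted p under 0.05.

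**Figure D2:**
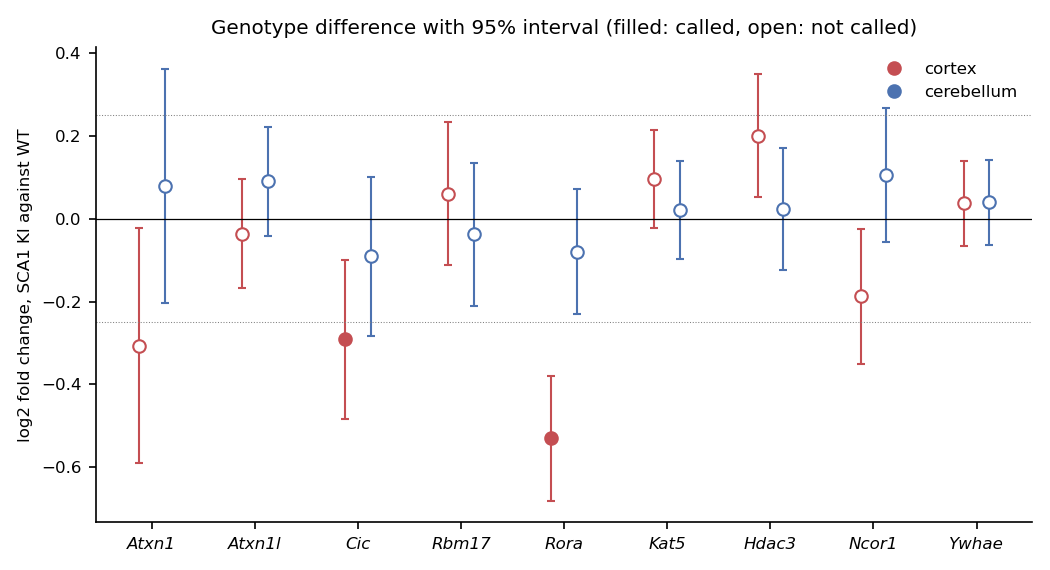
LFC of SCA1 KI against WT (y axis, log2) for the 9 genes (x axis) in cortex and cerebellum, with 95% intervals from limma. Filled points passed the test, open points did not, and dotted lines mark the limit of 0.25. Only Cic (-0.29) and Rora (-0.53) in the cortex are filled.

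Ywhae (chr11:75732869-75765845, plus strand) encodes 14-3-3ε, which binds phosphorylated ataxin-1 at the second site printed above. Its cortical counts were 31872, 32723 and 32013 in WT and 33405, 33691 and 32023 in SCA1 KI libraries. The groups overlapped, and the LFC of 0.04 (SE 0.05, 95% interval -0.07 to 0.14, adjusted p = 0.647) did not pass. In the cerebellum it was at 23755, 24147 and 23689 in WT and 24525, 24507 and 24533 in SCA1 KI libraries. These did not overlap, but the LFC was 0.04 (SE 0.05, adjusted p = 0.757).

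Of the 7 genes of the 14-3-3 family, 1 was lower and 0 were higher in each region, and it was Ywhah (14-3-3η) in both. Of all tested genes, 15.6% were called in the cortex and 5.36% in the cerebellum. Its counts were 32769, 34938 and 36559 in WT and 31103, 29346 and 26245 in SCA1 KI cortex, and 28389, 32254 and 31314 in WT and 22573, 23168 and 22134 in SCA1 KI cerebellum. Ywhah fell in the cortex by 0.27 (adjusted p = 0.0238) and in the cerebellum by 0.44 (adjusted p = 0.00381). The cortical call was lost without CX WT library C or D or CX SCA1 KI library F (LFC -0.26 to -0.20, adjusted p 0.0684 to 0.0894), and with each region on its own (adjusted p = 0.0915). With edgeR and with centring the LFC of -0.25 lay under the limit, and with scaling to the library total it was -0.13 (adjusted p = 0.176). The difference between the regions was 0.17 for Ywhah and did not pass (adjusted p = 0.392).

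Rbm17 (chr2:11585437-11604153, minus strand) encodes SPF45, a splicing factor that binds ataxin-1 in a complex distinct from that of Capicua. Its cortical counts were 1704, 1695 and 1715 in WT and 2022, 1729 and 1606 in SCA1 KI libraries. Library A stood above and library F below all WT libraries, and the LFC of 0.06 (SE 0.08, 95% interval -0.11 to 0.23, adjusted p = 0.659) did not pass. In the cerebellum it was at 1624, 1822 and 1684 in WT and 1683, 1604 and 1707 in SCA1 KI libraries (LFC -0.04, SE 0.08, adjusted p = 0.877). RBM17 and the splicing factors it works with make up a list of 8 genes, of which 0 passed in either region with limma, edgeR or DESeq2. With limma 0 had an unadjusted p under 0.05 in the cortex and 1 in the cerebellum, and their cortical LFC ran from 0.02 to 0.18. Beside this, limma called 15.6% of all tested genes in the cortex and 5.36% in the cerebellum.

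Among 11 further binders and regulators of ataxin-1, 10 were tested. Ubqln4, a ubiquitin-like protein, fell from 6911, 6878 and 6610 in WT to 4250, 5229 and 5030 in SCA1 KI cortex (LFC -0.50, adjusted p = 9.13e-04). Rbpj, the DNA-binding effector of Notch, fell by 0.29 (adjusted p = 0.00486). That call was lost with each region on its own (adjusted p = 0.0521), with length and GC trends removed (LFC -0.24) and with scaling to the library total (LFC -0.15, adjusted p = 0.0832). Neither passed in the cerebellum, at -0.04 and 0.02, and both differed between the regions (-0.45, adjusted p = 0.0245, and -0.32, adjusted p = 0.0369). The RNA-binding repressor Pum2 passed only in the difference between the regions (-0.31, adjusted p = 0.0344), with an LFC of -0.15 in the cortex and 0.17 in the cerebellum. Leaving out single libraries ended these regional calls while the LFC stayed near its reported size. Ubqln4 was lost without CB SCA1 KI library 1 or 3, CB WT library 2 or CX WT library C (LFC -0.44 to -0.41, adjusted p 0.0548 to 0.0741). Rbpj was lost without any 1 library except CX WT library B and CX SCA1 KI library F (LFC -0.34 to -0.28, adjusted p 0.0508 to 0.112), with thinned reads (LFC -0.32, adjusted p = 0.0528) and with length and GC trends removed (LFC -0.20, adjusted p = 0.203). Pum2 was lost without any 1 library except CB WT library 4, CX WT library B and CX SCA1 KI libraries E and F (LFC -0.32 to -0.27, adjusted p 0.0528 to 0.0922). With scaling to the library total the difference was -0.33 for Ubqln4 (adjusted p = 0.0572), -0.20 for Rbpj (adjusted p = 0.173) and -0.19 for Pum2 (adjusted p = 0.128), and none passed.

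Over the 47 tested genes of these lists that are not among the 9, 4 rose and 5 fell in the cortex, which is 19.1% beside 15.6% of all tested genes, and 1 rose and 2 fell in the cerebellum, which is 6.38% beside 5.36%. Their median LFC was 0.06 in the cortex and 0.05 in the cerebellum.

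**Figure D3:**
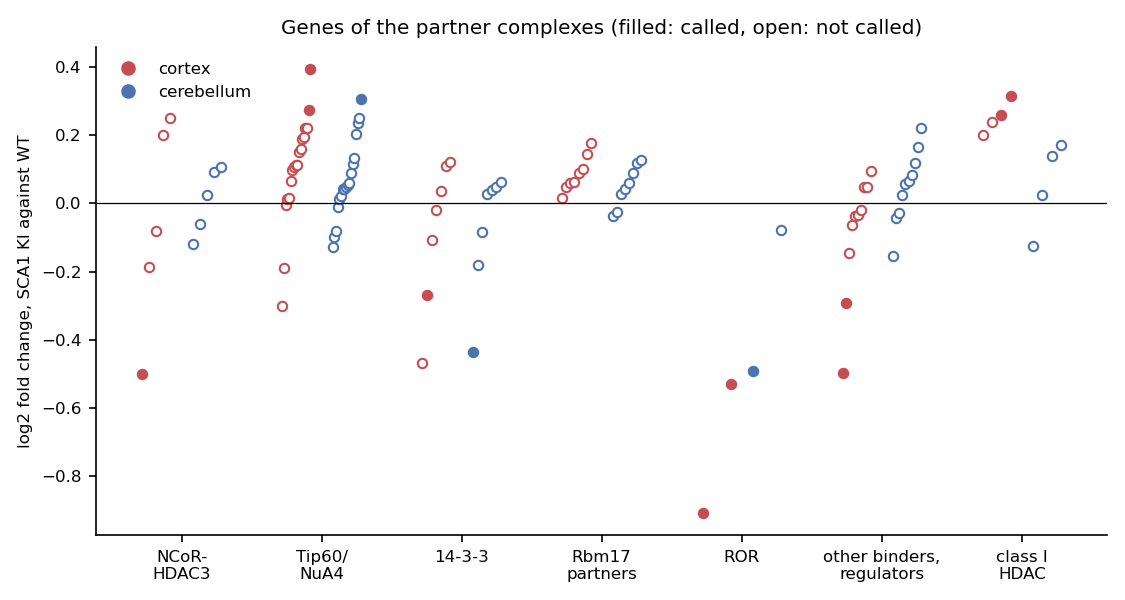
LFC of SCA1 KI against WT (y axis, log2) of the tested genes in the 7 lists (x axis), sorted within a list, in cortex and cerebellum. Filled points passed the test. The lowest cortical points are Rorb (-0.91) and Rora (-0.53), and the highest is Morf4l2 (0.39).

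None of the 9 genes passed in the cerebellum with limma, and none had an unadjusted p under 0.05, against 17.3% of all tested genes. The count was also 0 with edgeR and with DESeq2 on the recovered reads. The absolute LFC was at most 0.11 (Ncor1). The libraries of Atxn1l, Ncor1 and Ywhae did not overlap between the genotypes, all 3 higher in SCA1 KI. Of all genes, 31.8% did not overlap in either direction and 14.3% did so with SCA1 KI higher.

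Between the regions of WT mice, 4 of the 9 genes passed, 3 higher in cortex and 1 lower, beside 61.7% of all tested genes (31.0% higher and 30.7% lower). Rora was lower in cortex than in cerebellum by 1.81 on the log2 scale (LFC -1.81, SE 0.07, adjusted p = 2.08e-10). Atxn1 was higher in cortex (LFC 1.00, SE 0.13, adjusted p = 1.89e-05), as were Ywhae (LFC 0.43, SE 0.05, adjusted p = 3.31e-06) and Hdac3 (LFC 0.25, SE 0.07, adjusted p = 0.00549). Hdac3 sat at the limit and no longer passed it with the TMM factors (0.22), edgeR (0.22) or DESeq2 (0.25), or without CB WT library 4 (0.19) or CX WT library B (0.22). With scaling to the library total it was 0.08 (adjusted p = 0.348).

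Atxn1l was lower in WT cortex by 0.22 (LFC -0.22, adjusted p = 0.00696), under the limit on the LFC, and without CB WT library 2 it was at -0.25 and passed. Cic (0.10), Kat5 (0.04), Ncor1 (0.03) and Rbm17 (-0.00) did not pass, with 95% intervals that lay within -0.18 and 0.30.

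Between the regions of SCA1 KI mice, which share no library with the WT comparison, 6 of the 9 genes passed, 3 in each direction, beside 62.4% of all tested genes (32.0% higher and 30.5% lower). Rora was at -2.26, Atxn1 at 0.61, Hdac3 and Ywhae at 0.43, Atxn1l at -0.34 and Ncor1 at -0.26. Ncor1 no longer passed without CX SCA1 KI library A (-0.19) or with length and GC trends removed, where it was at -0.04 (adjusted p = 0.426). Of the 9 genes, only for Rora did the regional difference itself differ between the genotypes by the test given above.

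Per kb of exons, Ywhae was the highest of the 9 in every group, at 12540 ± 178 (SD, n = 3) normalized counts per kb in WT cortex and 9293 ± 96.5 (SD, n = 3) in WT cerebellum. In both it exceeded more than 99.6% of tested genes. In WT cortex there followed Ncor1 at 1016, Cic at 711, Rbm17 at 709, Hdac3 at 667, Kat5 at 620, Atxn1 at 530, Rora at 482 and Atxn1l at 318 normalized counts per kb. Cic and Rbm17 overlapped in their libraries, as did Atxn1 and Rora, and the other neighbours did not.

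In SCA1 KI cortex the order per kb was Ywhae (12866), Ncor1 (895), Hdac3 (767), Rbm17 (742), Kat5 (663), Cic (581), Atxn1 (434), Rora (334) and Atxn1l (310). Ncor1, Hdac3, Rbm17 and Kat5 overlapped from neighbour to neighbour, as did Atxn1, Rora and Atxn1l. Cic lay below Rbm17, Hdac3 and Kat5 in every SCA1 KI cortical library, whereas in WT cortex it lay above Kat5 and overlapped Rbm17 and Hdac3.

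In the cerebellum Rora was second in both genotypes, at 1689 ± 91.4 (SD, n = 3) in WT and 1598 ± 63.0 (SD, n = 3) in SCA1 KI, and Atxn1 was last, at 264 ± 3.95 (SD, n = 3) and 279 ± 15.9 (SD, n = 3). Between them, Rbm17, Cic, Kat5 and Hdac3 (711 to 561 in WT) overlapped from neighbour to neighbour in WT cerebellum. Atxn1l was above Atxn1 in the cerebellum and below it in the cortex. Atxn1 per Atxn1l within a library was 1.66 ± 0.12 (SD, n = 3) in WT cortex, 1.39 ± 0.23 (SD, n = 3) in SCA1 KI cortex, 0.717 ± 0.044 (SD, n = 3) in WT cerebellum and 0.711 ± 0.040 (SD, n = 3) in SCA1 KI cerebellum. The 2 genotypes overlapped in each region, and the regions did not.

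**Figure D4:**
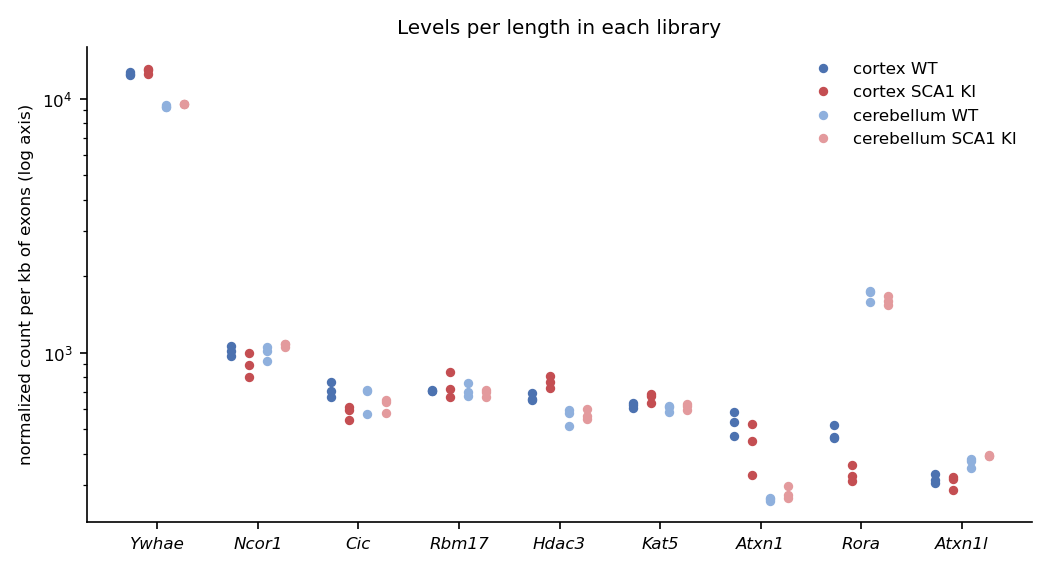
Normalized counts per kb of exons (y axis, log scale) of the 9 genes, ordered by their mean in WT cortex (x axis), with 1 point per library in each of the 4 groups. Rora is the gene whose rank changes most, from 482 per kb in WT cortex to 1689 per kb in WT cerebellum.

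Across the 12 libraries, the genes whose log2 level was most like that of Atxn1 were Mast2 (Pearson r = 0.983), Mark2 (r = 0.982) and Rbm15b (r = 0.980), out of 12662 genes with a mean of at least 100. Mast2 and Mark2 encode serine-threonine kinases. The genes most like Rora were Gria4 (r = 0.998), Kcng4 (r = 0.998) and Itpr1 (r = 0.998). Gria4 encodes a glutamate receptor subunit, Kcng4 a modifier of potassium channels, and Itpr1 the inositol trisphosphate receptor that is abundant in Purkinje cells. The libraries fall into a cortical and a cerebellar cluster for both genes, so these values are descriptions over libraries that share a region, and r was not computed within a region.

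CX SCA1 KI library A was the lowest or highest of the 6 cortical libraries for 8 of the 9 genes, lowest for Atxn1, Atxn1l, Cic, Rora and Ncor1 and highest for Rbm17, Kat5 and Hdac3, whereas it was extreme for 50.4% of all tested genes. Without it the cortical LFC was -0.48 for Rora (adjusted p = 0.00101), -0.24 for Cic, -0.12 for Atxn1, -0.11 for Ncor1, 0.16 for Hdac3, 0.07 for Kat5, 0.03 for Ywhae, 0.02 for Atxn1l and -0.03 for Rbm17, and Rora alone passed. CX WT library B was extreme for 37.7% of all tested genes and for 5 of the 9. It was highest for Atxn1, Atxn1l, Cic and Ncor1 and lowest for Ywhae. Its oligodendrocyte sum was 125999, against 78575 and 72896 in CX WT libraries C and D. Its choroid plexus sum was 1589, against 180 and 183. Of the 6 cerebellar libraries, WT library 2 was extreme for 58.8% of all tested genes and for 3 of the 9, lowest for Atxn1l, Cic and Ncor1. Its oligodendrocyte sum was 250154, against 163466 and 182095 in WT libraries 4 and 6. Its granule cell sum was 107543, against 156714 and 146824.

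A scaling of the reads to the total of each library, chosen after the data were seen, moved the median LFC of all tested genes in the cortex from -0.003 to 0.14 and the DEGs from 741 higher and 1661 lower to 2696 higher and 1019 lower. Rora was then at -0.39 and still passed (adjusted p = 9.07e-04), Cic was at -0.15 and did not (adjusted p = 0.178), and Hdac3 was at 0.34 and passed as higher (adjusted p = 0.00413). Rora was the member farthest below the median of all genes on either scaling. Of the partner lists, Tip60/NuA4 then had 10 of 18 genes higher and 0 lower (median LFC 0.25) and the class I deacetylases 4 of 4 higher. The median of the NCoR list moved from -0.08 to 0.06, with 2 genes higher and 1 lower, and that of the 14-3-3 family from -0.02 to 0.12, with 2 higher and 0 lower. The other binders and regulators moved from a median of -0.04 to 0.11, with Ubqln4 as their 1 lower gene, and Rorb was still lower.

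**Figure D5:**
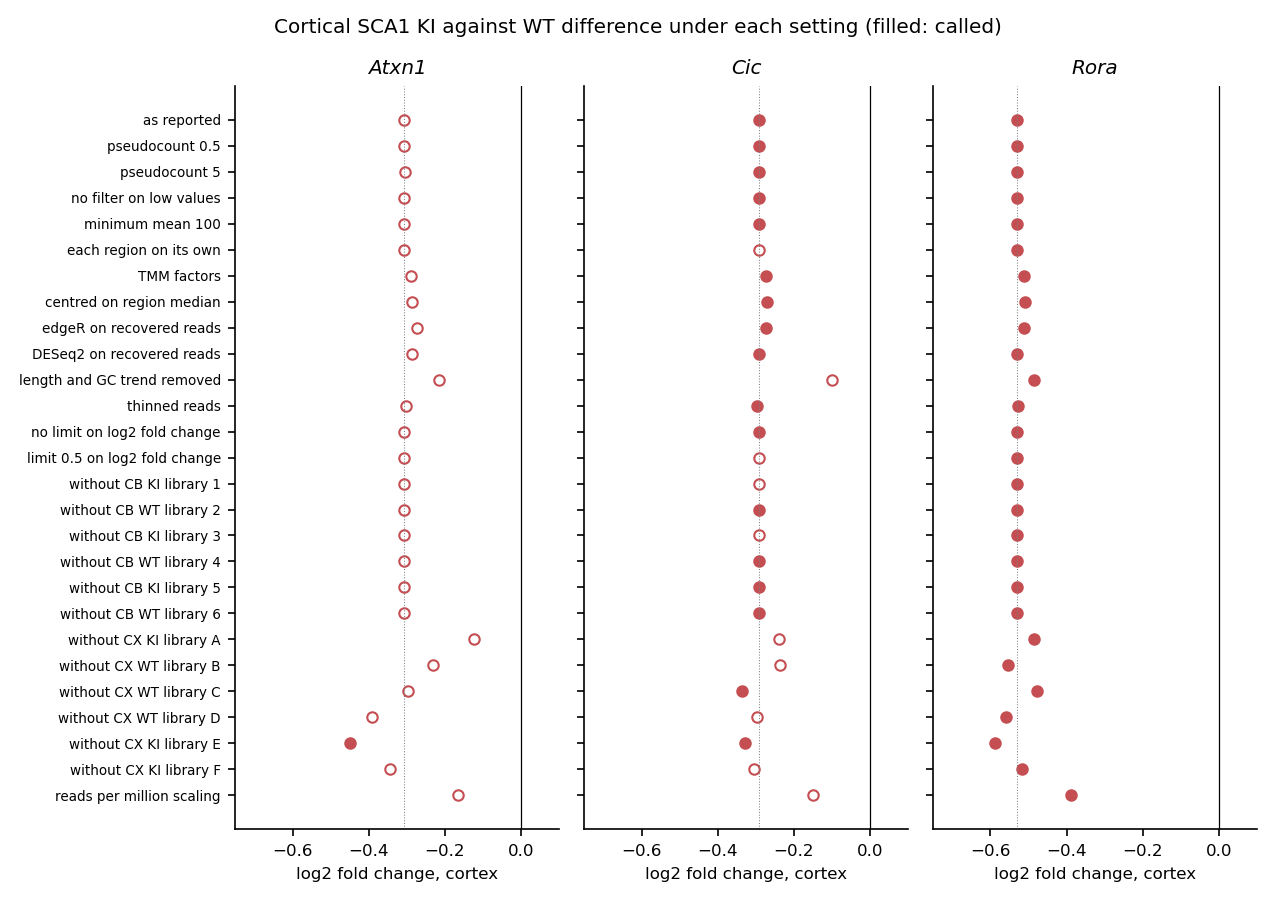
Cortical LFC of SCA1 KI against WT (x axis, log2) of Atxn1, Cic and Rora under each setting (y axis), including the 12 fits that leave out 1 library, with filled points where the gene passed the test and a dotted line at the reported value. Rora is filled throughout, from -0.59 to -0.39, Cic is open in 10 of 26 alternatives, and Atxn1 is filled only without CX SCA1 KI library E (-0.45).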

How the data were processed

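Poly-adenylated RNA of 12 libraries (4 groups of 3) was sequenced as 75 bp paired ends. The authors aligned the reads to mm10 with STAR, used featureCounts for the number per gene and DESeq2 for normalization; versions, annotation and strand setting are not given in the sources used here. The deposited signal is the normalized count, the reads divided by 1 size factor per library, and 100% of the values in every library were whole multiples of 1 read (within 0.01), so reads could be recovered. The labels list male mice, the methods both sexes. The library columns name no replicate of the labels.

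Of 15759 entries, 390 with a mean under 10 were left out. The main test was limma 3.58.1 (trend, empirical Bayes, R 4.3.3) on log2(normalized count + 1), which understates changes of low genes; on the recovered reads edgeR 4.0.16 called 842 genes higher and 1630 lower in the cortex and DESeq2 1.42.0 called 819 and 1853. Other alternatives were each region on its own, a pseudocount of 0.5 or 5, a minimum mean of 0 or 100, TMM factors, centring, removal of length and GC trends, thinning, LFC limits of 0 and 0.5, each library left out in turn and, added later, scaling to the library total. Scripts were tested on simulated counts. Coordinates, exon lengths and sequences are from GENCODE vM21 (GRCm38), which matched 15009 of 15758 symbols. The named genes were the 9, the genes of 7 partner lists that passed a genotype test or are discussed beside a member, the genes with overlapping exons, and the 3 genes most like Atxn1 and Rora. Some genes of the partner lists are not reported here and were left out of the lists' counts. The 9 genes, the partner lists and the marker lists were chosen with earlier results of these data known. Replicate p-values measure the spread between these libraries only.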

Additional observations from a re-analysis of the deposited data

Results flagged for a closer look

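The genotype difference of Rora differed between the regions by the interaction test of limma, at -0.45 on the log2 scale (SE 0.10, adjusted p = 0.0137). In the cortex Rora was lower in all 3 SCA1 KI libraries than in all 3 WT libraries (LFC -0.53), and in the cerebellum the genotypes overlapped (LFC -0.08). Region and experiment cannot be told apart.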

How the results depend on the processing

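Of the alternatives for the LFC of the 9 genes in the 5 comparisons, 1065 kept the sign and side of the threshold, 25 lost a call, 7 gained one and 28 turned a sign, all of genes that did not pass. Some of these alternatives could not turn a sign. A changed limit, or a left-out library of a group outside the comparison, leaves the LFC as it was. The count of members called in the cortex (2) was 1 with each region on its own, with length and GC trends removed and with a limit of 0.5, and 1 to 4 with a library left out (4 without CX SCA1 KI library E). The count in the difference between the regions (1) was 0 with a limit of 0.5 and 1 to 2 with a library left out (2 without CX SCA1 KI library E). With a limit of 0.5 the regional counts were 2 in WT and 2 in SCA1 KI. The cerebellar count stayed at 0 in all alternatives run. The cause of these changes was not tested beyond the setting itself.

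Signs turned as follows. With length and GC trends removed, the cortical LFC was 0.0047 for Atxn1l and -0.066 for Ywhae, the WT regional LFC -0.057 for Cic and -0.016 for Kat5, and the SCA1 KI regional LFC -0.029 for Rbm17. With scaling to the library total it was 0.11 for Atxn1l in cortex, 0.12 for Ywhae in the difference between the regions, and -0.071 for Cic, -0.14 for Kat5 and -0.15 for Ncor1 between WT regions. Ywhae in the difference between the regions was 0.016 with TMM factors, 0.012 with centring, 0.016 with edgeR, 9.41e-05 with thinned reads and -0.017 to 0.020 with a library left out (above 0 without CB WT library 2 or 6, CX WT library C or CX SCA1 KI library F). With a library left out, the cortical LFC ranged from -0.067 to 0.016 for Atxn1l and from -0.033 to 0.13 for Rbm17, both turned without CX SCA1 KI library A. The cerebellar LFC ranged from -0.074 to 0.0088 for Rbm17 (turned without WT library 4), from -0.0023 to 0.040 for Kat5 (WT library 6) and from -0.038 to 0.063 for Hdac3 (WT library 4 and SCA1 KI library 5). The WT regional LFC ranged from -0.040 to 0.043 for Rbm17 (CB library 4 and CX library C) and from -0.023 to 0.065 for Ncor1 (CB library 2 and CX library B).

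No paired analysis was possible because the library columns carry none of the replicate numbers of the labels. Every library held at least 1434 reads on every member, and counting error was not separated from the spread between the 3 libraries of a group.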
